A study of Mus musculus with 10 samples.

Results

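Egr1, Egr2, Egr3, Fos, Fosb, Jun and Junb are immediate-early transcription factor genes. They were chosen by name, through the gene symbols of the array's annotation, and are 7 of 15097 genes and 7 of 20243 features measured. Each of the 7 was represented by 1 probe, so no gene had a second probe to check it against. All 7 were higher after 72 h without IL-3 in cells with the FI-Delta Y577F receptor (limma, adjusted p between 2.35e-08 and 0.00016). In cells with the FI-Delta receptor, Egr1, Egr3, Fos and Jun were higher after 72 h and Egr2, Fosb and Junb did not pass the test. All 7 had a larger 72 h change in Y577F cells than in FI-Delta cells.

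The RNA came from FDB1, a line of mouse myeloid progenitors dependent on IL-3. FI-Delta, carried by one of the lines compared, is a constitutively active form of the signalling chain that receptors for GM-CSF, IL-5 and IL-3 have in common. The other line carried FI-Delta Y577F, in which a tyrosine of that mutant is replaced by phenylalanine (Y577F cells from here on). Cells of each line were taken while growing in medium with fetal calf serum and mouse IL-3 (0 h), or after washing and 72 h without the factor, which gives 4 RNA groups with 2 biological replicates per line. Every group carries an FI-Delta receptor, so neither the wild-type receptor nor FDB1 cells without a mutant receptor are among these groups, and whether each line is a clone or a pool is not given in the sources used here. No group was kept for 72 h with IL-3. Effects of losing the factor, of the washes and of the days in culture therefore cannot be told apart.

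The groups were compared in pairs on 10 two-colour spotted oligonucleotide arrays, which form the 4 sides of a square. The sides are 72 h over 0 h in FI-Delta cells (3 arrays), 72 h over 0 h in Y577F cells (2 arrays), Y577F over FI-Delta at 0 h (3 arrays) and Y577F over FI-Delta at 72 h (2 arrays). Each value is a log2 ratio between the paired RNAs, turned so that 72 h over 0 h or Y577F over FI-Delta is positive. A value of 1 is then a 2-fold difference. These are differences between RNAs and not levels, so no gene's abundance can be set against another's, and whether a myeloid marker is absent from the cells was not analysed here. RNA of this kind reports an average over a culture, in which fewer cells of a type and less RNA per cell cannot be told apart.

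Egr proteins are zinc finger transcription factors, and Fos and Jun proteins pair with each other as the factor AP-1. In most cells their genes are switched on within minutes of a growth signal, before any new protein is made. The kinase ERK phosphorylates ternary complex factors of the Ets family, which sit with serum response factor on CArG boxes of these promoters, and other kinases act on the same promoters, so the RNAs follow ERK activity but are not specific to it. In myeloid cells Egr and AP-1 factors are also known from macrophage differentiation.

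The promoter sequences below show which of the letters bound by these factors lie next to the start sites. The RefSeq promoter table (GRCm38.p6) had entries for 5 of the 7 genes, namely Egr2 (5 start sites), Fos, Fosb, Jun and Junb. The 250 bases before each start were searched on both strands for the CArG box, the Ets core GGAA, the cyclic AMP response element TGACGTCA, the AP-1 site TGANTCA and the Egr site GCGNGGGCG. A CArG box lay in 4 of the 5 Egr2 windows and in 1.47% of all 32851 windows of the table. Windows 3 to 5 of Egr2 overlap and share 1 box. The second stretch lies in window 2, where the CArG box overlaps an Ets core. The capitals mark the CArG box, and the stretches lie on the plus strand at chr10:67537787-67537816 and chr10:67537484-67537513.
Egr2, shared by windows 3 to 5: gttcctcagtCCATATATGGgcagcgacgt
Egr2, window 2: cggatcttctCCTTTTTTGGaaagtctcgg

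The Fos window (chr12:85473640-85473889, plus strand) held 5 Ets cores on either strand, in capitals here. An Ets core is in 93.4% of all windows, so its presence sets no gene apart.
Fos: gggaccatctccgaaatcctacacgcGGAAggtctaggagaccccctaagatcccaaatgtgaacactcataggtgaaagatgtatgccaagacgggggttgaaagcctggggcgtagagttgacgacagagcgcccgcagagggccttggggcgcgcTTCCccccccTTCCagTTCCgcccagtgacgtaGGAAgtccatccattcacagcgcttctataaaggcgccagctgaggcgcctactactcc

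The Fosb window held an Egr site at positions -50 to -42 relative to the start, in capitals in the stretch at chr7:19310076-19310105 (minus strand). The Egr site is in 4.7% of all windows. The Jun and Junb windows held Ets cores and no match to the other motifs, and no window of the 5 genes held the full cyclic AMP response element (1.55% of all windows) or the AP-1 site (6.75%).
Fosb: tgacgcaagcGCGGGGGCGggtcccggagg

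A match is a run of letters and not a measured site, and a missing match says only that these letters are not in this window.

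The signs of all ratios rest on the dyes named in the labels and on a likely, not stated, direction of Cy5 over Cy3. Turning all of them would turn every direction given here. Arrays of 1 side with opposite dyes had turned ratios that correlated across features at 0.519 (72 h), 0.63 (time in Y577F cells) and 0.236 and 0.351 (time in FI-Delta cells). At 0 h those correlations were 0.087 and -0.037, and the orientation there was read instead against the difference that the other 3 sides predict, with r of 0.291, 0.225 and 0.142 on arrays 1, 2 and 3 over 20243 features. Pairs with the same dyes had 0.539 (FI-Delta time arrays 1 and 3) and 0.357 (0 h arrays 2 and 3), above the opposite-dye pairs of their sides. The part of the ratios that goes with the dyes was not separated in these correlations. Genes are not independent replicates, so these values describe the arrays only. The medians of the arrays ran from -0.0155 to 0.00727 and their standard deviations from 0.229 to 0.367. Spot intensities were not analysed here, and the depth of single spots is unknown. The number of arrays limits the precision, and p-values treat arrays as independent although several share an RNA extract.

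Y577F cells kept for 72 h without IL-3 are compared first, because all 7 genes rose there. Over all features, 9.28% were called higher and 8.75% lower in this comparison, at an adjusted p under 0.05. The median change was 1.21 over the 7 genes and 0.0073 over all features.

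Egr1, a zinc finger factor induced by many growth signals, had log2 ratios of 3.18 and 3.07 on the 2 time arrays of Y577F cells. Both arrays were high and close together although their dyes were opposite. The fitted change was 3.03 ± 0.10 (SE), an 8.17-fold rise (limma, adjusted p = 2.35e-08), and only 1 of the 20243 features had a larger one. Egr3, a close relative of Egr1 that binds the same letters, had 2.32 and 2.28 on these arrays. Its fitted rise was 4.69-fold (2.23 ± 0.10, adjusted p = 1.86e-07), at rank 19. Egr2, known from myelin formation and from macrophages, had 1.34 and 0.91, lower than Egr1 and Egr3 on both arrays. The fitted rise of Egr2 was 2.32-fold (1.21 ± 0.11, adjusted p = 2.01e-05).

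Fos, the founding Fos subunit of AP-1, had ratios of 2.60 and 2.64 in Y577F cells. Its fitted rise was 5.92-fold (2.57 ± 0.12, adjusted p = 1.92e-07), at rank 9 of all features. Fosb, a Fos relative, had 0.70 and 0.82, the smallest values of the 7 on array 1. The fitted rise of Fosb was 1.84-fold (0.88 ± 0.11, adjusted p = 0.00016). Jun, the partner of Fos in AP-1, had 0.96 and 1.18, both above 0. It rose 2.18-fold (1.13 ± 0.10, adjusted p = 1.41e-05). Junb, a Jun relative with weaker activity on many targets, had 1.34 and 0.68, and its arrays were the farthest apart of the 7 genes. Junb rose 2.11-fold (1.08 ± 0.10, adjusted p = 1.58e-05).

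**Figure D1:**
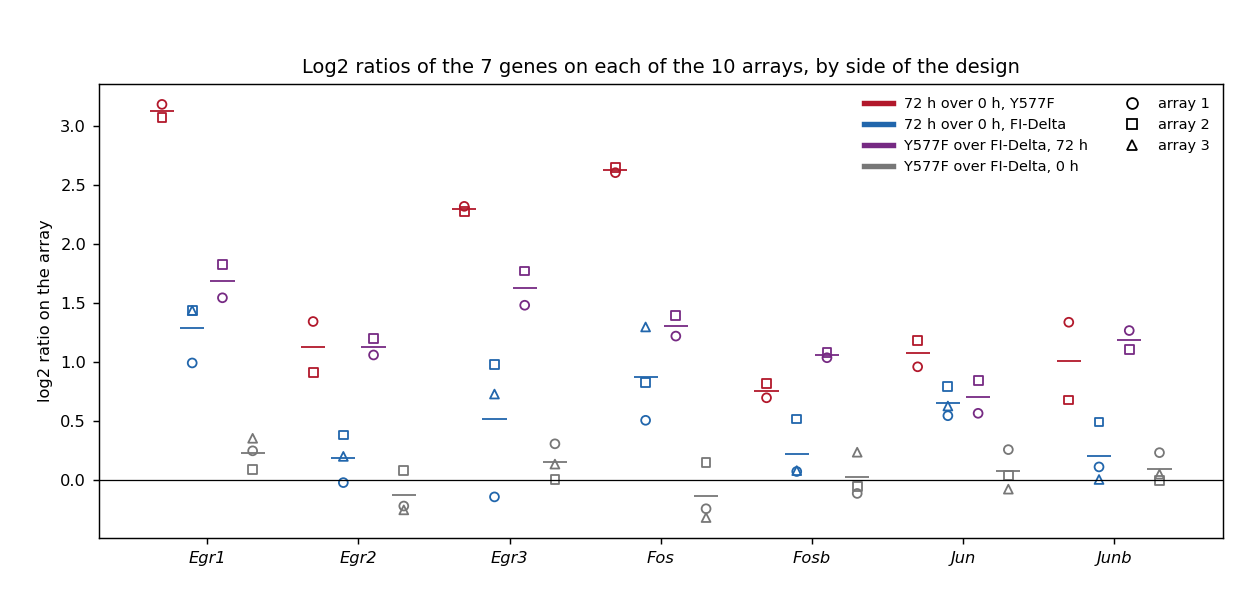
Log2 ratio of each of the 7 genes on each of the 10 arrays (y axis), by gene and by side of the design (colour), with array 1, 2 and 3 as circle, square and triangle and the mean of a side as a bar. The 2 time arrays of Y577F cells lie above all 3 time arrays of FI-Delta cells for every gene, and the 0 h arrays scatter around 0, between -0.32 and 0.35. The share of all features with that order of time arrays was not computed.

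The same 72 h without IL-3 in FI-Delta cells gave smaller changes. Over all features, 5.19% were called higher and 2.97% lower here, and 4 of the 7 genes were called higher. The median was 0.58 over the 7 genes and -0.0055 over all features. Arrays 1 and 2 of this side are a dye swap of 1 pair of extracts and entered the model as 1 hybridisation, with array 3 as the other.

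Egr1 had 0.99, 1.44 and 1.44 on the 3 time arrays of FI-Delta cells, all high. The fitted rise of Egr1 was 2.65-fold (1.41 ± 0.11, adjusted p = 1.57e-05), at rank 28. Egr3 had -0.14, 0.98 and 0.73, so that the dye swap of the same RNA gave a ratio near 0 on array 1 and a high one on array 2. The fitted rise of Egr3 was 1.55-fold (0.64 ± 0.11, adjusted p = 0.0035), and without array 2 it was 0.47 with an adjusted p of 0.184. Egr2 had -0.02, 0.38 and 0.20, with array 2 the highest. Its fitted change of 0.11 ± 0.12 did not pass (adjusted p = 0.707), with a 95% interval from -0.15 to 0.36.

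Fos had 0.51, 0.83 and 1.30 in FI-Delta cells, above 0 on every array but spread more widely than in Y577F cells. It rose 1.99-fold (0.99 ± 0.13, adjusted p = 0.000505). Jun had 0.54, 0.79 and 0.63, a narrow range. It rose 1.50-fold (0.58 ± 0.10, adjusted p = 0.00457), and with arrays 1 and 2 both left out it was 0.53 with an adjusted p of 0.0686. Fosb had 0.07, 0.52 and 0.08, with array 2 apart from the others. Its fitted change was 0.04 ± 0.11 (adjusted p = 0.915, 95% interval -0.21 to 0.28), and it was -0.09 without array 2. Junb had 0.11, 0.49 and 0.0037, again highest on array 2. The fitted change of Junb was 0.16 ± 0.10 (adjusted p = 0.426, 95% interval -0.06 to 0.39), and when arrays were weighted by their quality it was 0.25 with an adjusted p of 0.0331.

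While the cells were growing in IL-3, no difference between the lines was detectable for these genes with 3 arrays. At 0 h, 0.934% of features were called higher in Y577F cells and 0.484% lower, and 0 of the 7 genes were called either way (limma, adjusted p between 0.389 and 0.841). Only Junb had an unadjusted p under 0.05 (0.0431). The median was 0.10 over the 7 genes and -0.0059 over all features.

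Egr1 had 0.25, 0.09 and 0.35 on the 0 h arrays, all above 0, as were those of Egr3. Its fitted difference was 0.16 ± 0.09, with a 95% interval from -0.05 to 0.36. Fos had -0.24, 0.15 and -0.32, with both signs. The fitted difference of Fos was -0.21 ± 0.11 (95% interval -0.45 to 0.03). Egr3 had 0.31, 0.0033 and 0.13, Egr2 had -0.22, 0.08 and -0.25, and Fosb had -0.11, -0.05 and 0.23. Their fitted differences of 0.10, -0.07 and 0.09 had 95% intervals that include 0. Jun had 0.26, 0.04 and -0.08, with a fitted difference of 0.10 ± 0.09. Junb had 0.23, -0.0031 and 0.05, with a fitted difference of 0.20 ± 0.09 and a 95% interval from 0.0073 to 0.39. The interval bound farthest from 0 among the 7 genes was that of Fos, -0.45, so a 2-fold difference at 0 h lies outside all 7 intervals.

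After 72 h without IL-3 the lines differed in all 7 genes. Of all features, 6.44% were called higher in Y577F cells and 6.45% lower at 72 h, and all 7 genes were called higher. The median was 1.11 over the 7 genes and 0.0073 over all features.

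Egr1 had 1.54 and 1.82 on the 72 h arrays, and the fitted difference was 3.43-fold (1.78 ± 0.10, adjusted p = 6.82e-07). Egr3 had 1.48 and 1.77, with a difference of 3.23-fold (1.69 ± 0.10, adjusted p = 1.16e-06). Egr2 had 1.06 and 1.20, with a difference of 2.06-fold (1.04 ± 0.11, adjusted p = 8.52e-05). The 3 Egr genes were thus above 1 on both arrays, whose dyes were opposite. Fos had 1.22 and 1.40, and was 2.58-fold higher in Y577F cells (1.37 ± 0.12, adjusted p = 1.75e-05). Fosb had 1.04 and 1.08, and was 1.91-fold higher (0.93 ± 0.11, adjusted p = 0.000141). Fosb's arrays at 72 h were the closest pair among the 7 genes. Jun had 0.56 and 0.84, the smallest values of the 7, and was 1.57-fold higher (0.65 ± 0.10, adjusted p = 0.00109). Junb had 1.27 and 1.11, and was 2.16-fold higher (1.11 ± 0.10, adjusted p = 1.53e-05).

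**Figure D2:**
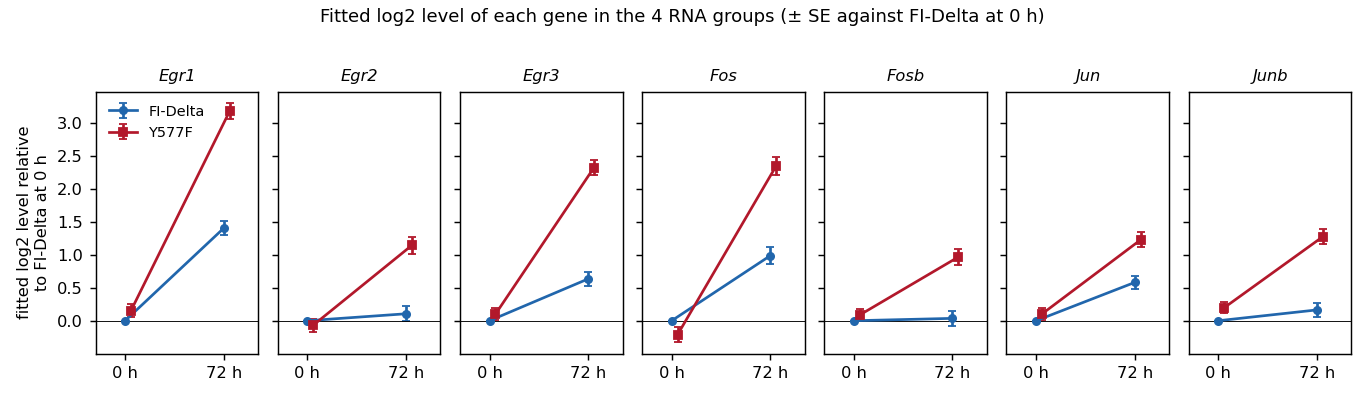
Fitted log2 level of each gene (y axis) at 0 h and 72 h (x axis) in FI-Delta cells (circles) and Y577F cells (squares), relative to FI-Delta at 0 h, which is 0 by definition, with the standard error of each difference from it. The 0 h points of the lines lie within 0.21 of each other, and the 72 h point of Y577F cells is the highest of each panel.

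Placed on 1 scale relative to FI-Delta cells at 0 h, the 4 groups had the same highest group for all 7 genes. Y577F cells at 72 h stood at 3.19 for Egr1, 2.35 for Fos, 2.33 for Egr3, 1.28 for Junb, 1.23 for Jun, 1.15 for Egr2 and 0.97 for Fosb, and differed from every other group. FI-Delta cells at 72 h came next for Egr1, Fos, Egr3 and Jun, and lay above Y577F cells at 0 h by 1.25 (adjusted p = 3.05e-05), 1.20 (adjusted p = 0.000136), 0.54 (adjusted p = 0.0114) and 0.48 (adjusted p = 0.0169) in the same limma fit. For Egr2, Fosb and Junb, no difference among FI-Delta cells at 72 h and both 0 h groups passed the adjusted threshold (adjusted p of 0.482, 0.859 and 0.904 for FI-Delta at 72 h against Y577F at 0 h), although the 0 h interval of Junb did not include 0. No dye effect was called for any of the 7 genes (limma, adjusted p between 0.175 and 0.956). The dye swap of FI-Delta extracts adds nothing to this dye term, because its arrays were turned and averaged first. All 7 genes were higher on array 2 of that swap than on array 1, with Egr3 at 0.98 against -0.14. The dye term therefore cannot tell whether an effect of dye or array is absent.

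Whether the 72 h change itself differed between the lines was then tested, as the interaction of line and time in the same model. Of all features, 4.33% were called with a higher change in Y577F cells and 4.91% with a lower one, and all 7 genes were called higher. The median difference was 1.11 over the 7 genes and 0.0126 over all features.

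Egr1 had a difference of 1.62 ± 0.12 (limma, adjusted p = 1.64e-05), Egr3 of 1.59 ± 0.12 (adjusted p = 1.89e-05) and Fos of 1.58 ± 0.14 (adjusted p = 5.6e-05). Their rise was therefore about 3-fold larger in Y577F cells, with folds of 3.08, 3.02 and 2.98. Egr2, at 1.11 ± 0.13 (adjusted p = 0.00035), Junb, at 0.92 ± 0.11 (adjusted p = 0.000451), and Fosb, at 0.85 ± 0.12 (adjusted p = 0.00152), were the genes with no called change in FI-Delta cells. Jun had the smallest difference, 0.54 ± 0.11 (adjusted p = 0.0123). Without 72 h array 2 the Jun difference was 0.42 with an adjusted p of 0.0983.

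**Figure D3:**
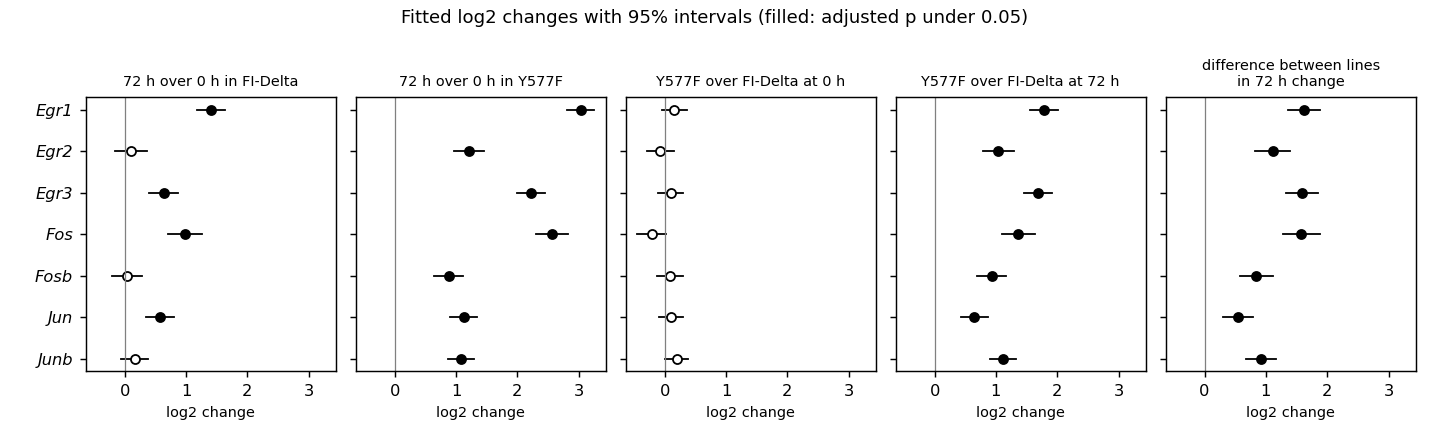
Fitted log2 change of each gene (points, x axis) with its 95% interval (bars) in the 5 comparisons, filled where the adjusted p is under 0.05. All 7 points are filled in the 72 h change of Y577F cells, in the 72 h difference between lines and in the difference of changes, 4 in FI-Delta cells and 0 at 0 h.

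The square of comparisons allows the same difference to be read from 2 separate sets of arrays. One reading is the mean of the time arrays of Y577F cells minus that of FI-Delta cells, and the other is the mean of the 72 h arrays minus that of the 0 h arrays. For Egr1 the readings were 1.80 and 1.45, for Egr3 1.73 and 1.48, and for Fos 1.64 and 1.44. For Egr2 they were 0.94 and 1.26, for Junb 0.85 and 1.09, for Fosb 0.57 and 1.04, and for Jun 0.42 and 0.63. All 14 readings were above 0. Both sets of arrays drew on the same 2 biological replicates per line, so the readings are not independent. The share of all features with both readings above 0 was not computed. The time arrays gave the larger reading for Egr1, Egr3 and Fos, and the line arrays gave it for the other 4 genes. Fosb had the largest gap between its readings, 0.46 in size, which 5.86% of features exceeded. Over all features the median gap was 0.149 in size and the 95th percentile 0.485. In a limma fit with 1 coefficient per side and no dye term, the difference comes from the time arrays only. The spread behind its p-values still comes from all 4 sides. In that fit Fosb (0.57, adjusted p = 0.169), Jun (0.42, adjusted p = 0.382) and Junb (0.85, adjusted p = 0.0967) no longer passed. It called 4 of the 7 genes.

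**Figure D4:**
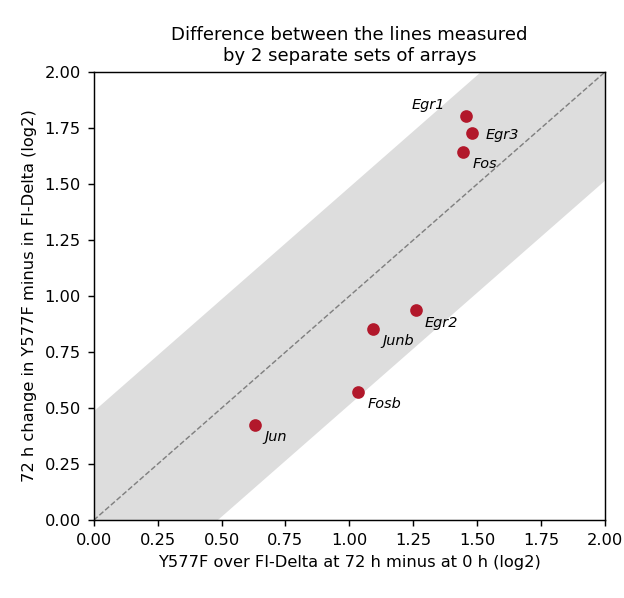
Y577F minus FI-Delta difference of the 72 h changes as read from the time arrays (y axis, log2) against the same difference as read from the line arrays (x axis, log2), 1 point a gene. The dashed line marks equal readings and the grey band the 95th percentile of the gap over all features, 0.485 to each side, and all 7 genes lie within the band.

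Junb also had 2 control spots on the array, which were left out. The spot labelled with a sequence accession gave -0.33 and -0.14 on the 72 h arrays and -0.19 and 0.32 over time in Y577F cells, and the spot labelled as empty gave 0.02 and 0.27, and -0.09 and 0.09. Neither followed the Junb probe. With both averaged in, Junb was 0.37 in Y577F cells over time (adjusted p = 0.00477), 0.36 between the lines at 72 h (adjusted p = 0.00775) and 0.36 in the difference of changes (adjusted p = 0.0219). These are smaller than the values of the probe alone, and which spot reads Junb RNA was not tested.

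The 7 genes varied together to different degrees over the 9 hybridisations, as measured by the uncentred correlation of their turned ratios. The measure is high whenever genes share the large Y577F time values, so it is a description of these arrays only. With Egr1 it was 0.9814 for Fos, 0.9796 for Egr3 and 0.9757 for Jun, and 0.9008 for Egr2, 0.8738 for Junb and 0.8681 for Fosb. Egr2 and Junb had 0.9565 with each other and Fosb and Junb 0.9434. The lowest pair was Fos and Fosb at 0.8389. Over all 20243 features, 24 were more like Egr1 than Fos was, 32 than Egr3 and 48 than Jun. For Egr2, Junb and Fosb the numbers were 435, 580 and 624. The features named next were picked from the 4359 with a symbol and a call in at least 1 comparison.

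The features most like Egr1 were Cd68 (0.9935), a lysosomal glycoprotein used as a macrophage marker, Sgpl1 (0.9933), the lyase of sphingosine 1-phosphate, Naaa (0.9923), a lysosomal amidase, Cd84 (0.9921), a leukocyte surface receptor, and Trem2 (0.9897), a macrophage receptor. Those most like Fos were Sgpl1 (0.9888), Anxa4 (0.9876), an annexin, Naaa (0.9859), Dpp7 (0.9856), a lysosomal dipeptidyl peptidase, and Pald1 (0.9851). Cd68 changed by 0.86 ± 0.09 in FI-Delta cells and 2.09 ± 0.09 in Y577F cells, and Naaa by 0.97 ± 0.10 and 2.50 ± 0.10.

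For the lists that follow, the background is the share called over all features. Over time it was 5.19% higher and 2.97% lower in FI-Delta cells, and 9.28% and 8.75% in Y577F cells. Between the lines it was 0.934% and 0.484% at 0 h, 6.44% and 6.45% at 72 h, and 4.33% and 4.91% in the difference of changes. Other members of the families and their binding partners were measured next, beside the same background. Of 11 such genes, 5 rose and 1 fell over 72 h in Y577F cells, 2 rose in FI-Delta cells, 0 were called at 0 h, and at 72 h 4 were higher and 1 lower in Y577F cells. In the difference of changes 3 were higher and 1 lower. Their medians were 0.09 in both lines over time. Nab2, a corepressor that binds Egr proteins, rose by 0.79 ± 0.09 in Y577F cells (adjusted p = 0.000103), and Jund, the third Jun gene, by 0.64 ± 0.10 (adjusted p = 0.000864). Batf, an AP-1 partner of immune cells, rose in both lines, by 0.61 ± 0.11 in FI-Delta and 0.67 ± 0.10 in Y577F cells. The count of 5 in Y577F cells was 3 without Y577F time array 2. The count of 4 higher at 72 h ranged from 1 to 4 when single hybridisations were left out, with fewer without either 72 h array, 0 h array 2 or the FI-Delta dye swap. The count of 3 in the difference ranged from 0 to 4, with fewer without 0 h array 1 or 72 h array 2.

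Jdp2, a protein that pairs with Jun and represses AP-1, went the other way. It had -0.84 and -0.40 over time on the Y577F arrays, and 0.52, 0.50 and 0.79 on the FI-Delta arrays. It had -1.20 and -1.17 on the 72 h arrays and 0.24, 0.04 and 0.26 at 0 h. Thus its time arrays had opposite signs in the lines, with no overlap, and the share of all features without overlap was not computed. Jdp2 rose by 0.65 ± 0.10 in FI-Delta cells (adjusted p = 0.00224) and fell by 0.65 ± 0.10 in Y577F cells (adjusted p = 0.000741). The difference of changes was -1.30 ± 0.11 (adjusted p = 5.46e-05), and all 20 alternative analyses kept it called.

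Serum response factor (Srf), its Ets partners Elk1, Elk3 and Elk4, and the CREB factors Creb1 and Crem act on promoters of this kind. Over all features, 9.28% were called higher and 8.75% lower over time in Y577F cells, and smaller shares in the other comparisons. Few calls are therefore to be expected among 6 genes. Of these 6 genes, out of 8 listed, 0 were called over time in either line, 0 at 0 h, 0 in the difference, and 1 at 72 h. That gene, the Ets factor Elk1, was 0.31 ± 0.08 higher in Y577F cells (adjusted p = 0.0205), a call lost without either 72 h array. In Y577F cells 1 of the 6 was called lower over time without FI-Delta time array 3. The lowest and highest changes of the 6 were -0.30 and 0.22 in Y577F cells and -0.18 and 0.20 in FI-Delta cells.

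The other immediate-early genes, which are switched on by the same kind of signal, rose in part. Of 28 measured, 9 rose and 0 fell in FI-Delta cells, and 15 rose and 1 fell in Y577F cells. In FI-Delta cells 1 was lower without Y577F time array 1 or FI-Delta time array 1, and in Y577F cells 2 were lower without 72 h array 1. None was called at 0 h, where 0.934% of all features were higher and 0.484% lower. At 72 h 9 were higher and 1 lower in Y577F cells, and 8 had a higher and 1 a lower change. Their medians were 0.15 in FI-Delta and 0.36 in Y577F cells. Zfp36, which encodes a protein that destabilises cytokine RNAs, rose by 1.41 ± 0.13 in Y577F cells (adjusted p = 2.23e-05), Btg2, an antiproliferative gene, by 1.37 ± 0.10 (adjusted p = 4.3e-06), and Mcl1, a survival gene of the Bcl2 family, by 1.29 ± 0.11 (adjusted p = 7.25e-06). Myc, a growth-promoting factor often induced with Fos, fell by 0.53 ± 0.08 (adjusted p = 0.000781). In FI-Delta cells the largest rises were those of the kinase gene Plk3 (1.09 ± 0.11), the GTPase gene Rhob (0.96 ± 0.10) and the factor gene Klf6 (0.71 ± 0.11). Zfp36 (0.90 ± 0.15), Ier2 (0.86 ± 0.10) and Btg2 (0.84 ± 0.12) had the largest positive differences of changes. Plk3 had a difference of -0.51 ± 0.12 and was 0.56 ± 0.10 lower at 72 h on the log2 scale in Y577F cells. The Plk3 call at 72 h was lost without 72 h array 1. Its difference was lost without 0 h array 1, either 72 h array, Y577F time array 1 or FI-Delta time array 3.

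Over all features, 5.19% were called higher and 2.97% lower over time in FI-Delta cells, and 0.934% and 0.484% at 0 h. Few calls are therefore to be expected there in a short list. Genes of the ERK cascade itself were measured for 14 of 22 listed. Of these 0 were called in FI-Delta cells and 0 at 0 h, 4 rose in Y577F cells, 4 were higher in Y577F cells at 72 h and 2 had a higher change. They included Rps6ka3, a kinase that ERK activates, at 0.48 ± 0.11 in Y577F cells, and the Ras gene Nras at 0.47 ± 0.11. When single hybridisations were left out these counts ranged from 0 to 4, 0 to 4 and 0 to 3, and every hybridisation other than Y577F time array 2 moved at least 1 of these counts by over 1.5 times. In FI-Delta cells 1 gene was called lower without Y577F time array 1, 0 h array 3 or FI-Delta time array 1. RNA of the cascade does not measure its activity. Phosphorylated ERK was not analysed here.

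The feedback inhibitors of ERK, which ERK signalling itself is known to induce, were measured for 8 of 10. Dusp6, the cytoplasmic ERK phosphatase, had 0.81 and 0.41 over time on the Y577F arrays, and 0.83, 0.63 and 0.77 on the FI-Delta arrays, which overlap. It had -0.17 and -0.05 on the 72 h arrays. Dusp6 rose by 0.80 ± 0.10 in FI-Delta cells (adjusted p = 0.000309) and 0.59 ± 0.09 in Y577F cells (adjusted p = 0.000855), and the difference of its changes did not pass (-0.21 ± 0.11, adjusted p = 0.249). Dusp4 rose in both lines (0.43 ± 0.12 and 0.36 ± 0.11), and Spry4 and Spred1 fell in Y577F cells by 0.27 ± 0.08 and 0.30 ± 0.09, calls that did not hold when single hybridisations were left out. In all, 2 of 8 rose in FI-Delta cells, 2 rose and 2 fell in Y577F cells, and 0 were called in the other 3 comparisons. Over all features those 3 had 0.934% higher and 0.484% lower at 0 h, 6.44% and 6.45% at 72 h, and 4.33% and 4.91% in the difference. Few calls are therefore to be expected among 8 genes, and their absence is not a result about this list. Dusp4 lost its call in one or both lines without any 1 of the 0 h arrays, either 72 h array, Y577F time array 1, FI-Delta time array 3 or array 1 of the FI-Delta dye swap, which left 1 called higher. The count of 2 lower was 0 or 1 without any single hybridisation.

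**Figure D5:**
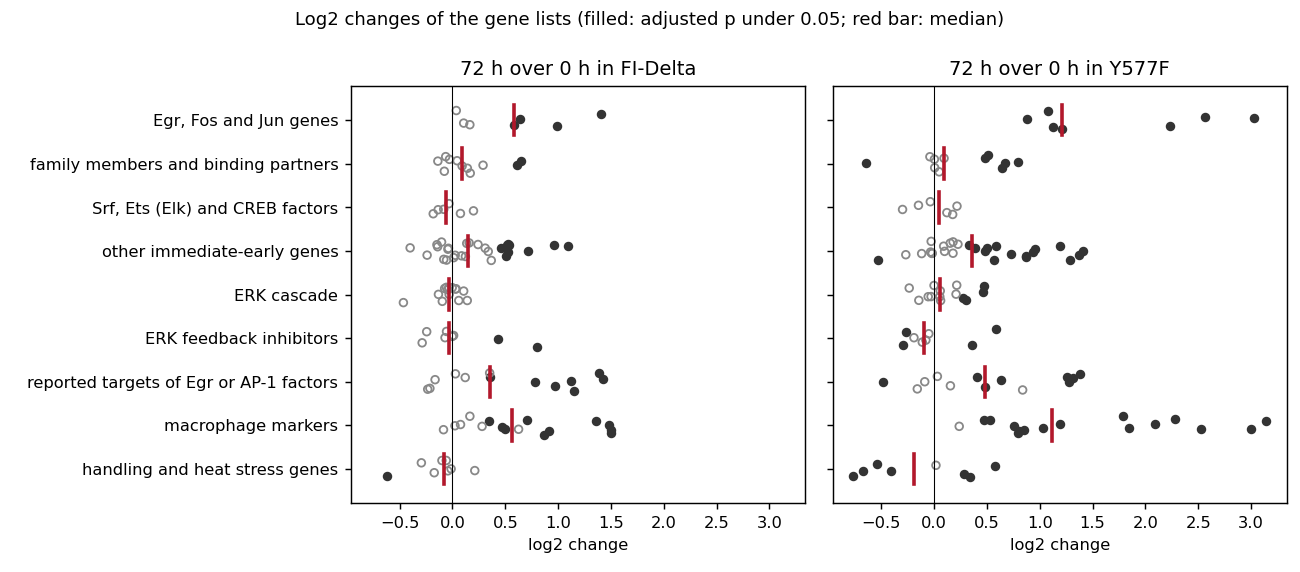
Log2 change over 72 h (x axis) of the genes of 9 lists (rows) in FI-Delta cells (left) and Y577F cells (right), 1 point a gene, filled where the adjusted p is under 0.05, with the list median as a red bar. The median of the 7 genes is 0.58 on the left and 1.21 on the right, and that of the Srf, Ets and CREB factors -0.06 and 0.04.

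Genes reported elsewhere as targets of Egr or AP-1 factors were measured for 13 of 14. Of these 7 rose in FI-Delta cells, and 7 rose and 1 fell in Y577F cells. At 72 h 3 were higher and 2 lower in Y577F cells, and in the difference of changes likewise 3 and 2. The urokinase receptor gene Plaur (1.38 ± 0.13), the adhesion receptor gene Cd44 (1.32 ± 0.09) and the cytokine gene Tnf (1.28 ± 0.10) rose most in Y577F cells, and Vegfa fell by 0.48 ± 0.09. Plaur and Cd44 also rose in FI-Delta cells, by 1.12 ± 0.14 and 0.97 ± 0.10. Mmp9, a gelatinase of neutrophil granules and an AP-1 target, rose by 1.43 ± 0.11 in FI-Delta cells and had a difference of changes of -1.59 ± 0.12, opposite in sign to those of Fos and Jun. Mmp9 also stands in the neutrophil list. At 0 h 1 was higher and 2 lower in Y577F cells. The one higher, Tnf, lost its call without any 1 of the 0 h arrays, 72 h array 1 or the FI-Delta dye swap, and the count of 2 was 1 without 0 h array 1. The 2 lower in the difference of changes were 1 without the FI-Delta dye swap.

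Markers of myeloid cell types were read on the same arrays. Of 16 macrophage markers, 10 rose in FI-Delta cells (6 without FI-Delta time array 3) and 15 in Y577F cells, 14 were higher and 1 lower in Y577F cells at 72 h, and 12 had a higher and 1 a lower change. Their median changes were 0.56 and 1.11, with ranges from -0.09 to 1.50 and from 0.24 to 3.14. The protease gene Ctss rose by 1.48 ± 0.10 in FI-Delta and 3.14 ± 0.09 in Y577F cells, and the lectin gene Clec7a by 1.50 ± 0.09 and 3.00 ± 0.09. Itgam, of the same list, rose more in FI-Delta cells (1.50 ± 0.10) than in Y577F cells (0.81 ± 0.10). At 72 h Itgam was lower in Y577F cells (-1.15 ± 0.10), with a difference of changes of -0.69 ± 0.11. At 0 h 3 of the 16 markers were higher and 1 lower in Y577F cells, and without 0 h array 1 both counts were 0. The 7 genes and most of the macrophage markers were thus higher in the same samples, and the part of cell type makeup in the values of the 7 genes was not tested.

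Of 13 neutrophil granule markers, 10 rose in FI-Delta cells, and 1 rose and 5 fell in Y577F cells. At 0 h 11 and at 72 h 12 were lower in Y577F cells, with medians of -0.90 and -2.52. Of 11 mast cell and basophil markers, 4 fell in each line and 1 rose in Y577F cells, a call lost without Y577F time array 1. At 72 h 3 were higher and 1 lower in Y577F cells, and 2 had a higher and 1 a lower change, the latter 2 without the FI-Delta dye swap. At 0 h 2 were higher and 1 lower, with ranges from 0 to 2 and 0 to 1 when single hybridisations were left out, fewer without any 1 of the 0 h arrays, 72 h array 1 or Y577F time array 2. Fcer1a, a chain of the IgE receptor, was higher in Y577F cells at 72 h by 2.32 ± 0.20 and Cpa3, the mast cell carboxypeptidase gene, by 2.29 ± 0.10, beside 1.78 for Egr1. Hdc, of the same list, went the other way at 72 h (-1.25 ± 0.08). In that comparison 7 of the 11 markers were not called, and the median of the list was 0.05. The part of these cell types in the values of the 7 genes was not tested.

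Genes of handling and heat stress are given because washing can induce immediate-early genes. Of 8 measured, 0 rose and 1 fell in FI-Delta cells, beside 5.19% and 2.97% of all features. In Y577F cells 3 rose and 4 fell, beside 9.28% and 8.75% of all features. Hsph1, a heat shock protein gene, fell by 0.62 ± 0.09 in FI-Delta and by 0.54 ± 0.09 in Y577F cells, and Hspb1 fell by 0.77 ± 0.12 in Y577F cells. Hmox1, which encodes heme oxygenase, rose by 0.57 ± 0.11 there. The count of 3 was between 1 and 2 whenever single hybridisations were left out. In the difference of changes 1 was higher and 2 lower, with ranges from 0 to 3 and 0 to 2 when single hybridisations were left out. The part of handling in the values of the 7 genes was not tested.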

How the data were processed

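Each deposited value is a log2 ratio between the 2 dyes of an array, normalised by the authors. Base 2 and the direction Cy5 over Cy3 are assumed, because the submitters' processing notes name limma (no version stated), which writes log2 ratios of that direction. How background and normalisation were handled is not given in the sources used here. RNA was labelled indirectly, per the labels' protocols.

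Of 23040 spots, 1243 control spots were left out. Probes with the same symbol in the platform annotation were averaged, which gave 20243 features. The dye swap of FI-Delta extracts number 2 was averaged, leaving 9 hybridisations. Using limma 3.58.1 in R 4.3.3, 3 group coefficients and a dye term were fitted (5 residual and 6.34 prior degrees of freedom). Tests were two-sided with Benjamini-Hochberg adjustment over all features. The fit was tested on simulated data. The median SE was 0.0871 to 0.112, and the dye term was called in 146 features.

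Named were all 7 genes, up to 3 called genes per list, comparison and direction, and the 5 features most like Egr1 and Fos. Other genes named, such as Plaur and Cd44 in FI-Delta cells, give the other line's value of a named gene. The genes, lists and tests were chosen with earlier results of these data known. Alternatives covered the dye term, a replicate block, array weights, scaling, probe averaging, features with a symbol, direct arrays and each hybridisation left out. Control spots of Junb and single arrays of the dye swap were added after the data were seen.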

Additional observations from a re-analysis of the deposited data

Results flagged for a closer look

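The 72 h change differed between the lines for all 7 genes by the test of the interaction itself (limma, adjusted p between 1.64e-05 and 0.0123). The difference, Y577F minus FI-Delta on the log2 scale, was 1.62 for Egr1, 1.11 for Egr2, 1.59 for Egr3, 1.58 for Fos, 0.85 for Fosb, 0.54 for Jun and 0.92 for Junb. By the same test, 4.33% of all features were called with a higher change in Y577F cells. Every gene had both time arrays of Y577F cells above all 3 time arrays of FI-Delta cells. The share of all features with that order was not computed.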

How the results depend on the processing

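Each gene and comparison was recomputed under 20 alternatives, and Junb under 1 more. The alternatives on probe averaging and on features with a symbol could change only the p-values, because each gene has 1 probe. The FI-Delta dye swap was left out whole and also 1 array at a time, so the alternatives overlap. For the 72 h change in Y577F cells and the 72 h difference between lines, all 141 values of each kept their sign and call. In FI-Delta cells 136 of 141 did, 2 lost and 1 gained a call, and 2 uncalled values changed sign, Fosb to -0.13 and -0.089 without the dye swap or its array 2. Left-out hybridisations gave Fosb there between -0.13 and 0.14. At 0 h 5 uncalled values changed sign. Egr2 ranged from -0.15 to 0.051, Egr3 from -0.058 to 0.16 and Jun from -0.023 to 0.17 with hybridisations left out, the ends of opposite sign without 0 h array 1. Egr3 was -0.011 with array weights and Junb -0.0071 with its control spots. In the difference of changes 4 calls were lost. The direct-array fit, with no dye term and 1 coefficient per side, called 4 of 7 genes. The calls per comparison ranged from 3 to 4 in FI-Delta cells and 6 to 7 in the difference with hybridisations left out.

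The labels share replicate numbers, and their pairing with cultures is uncertain because arrays with Y577F in Cy5 give the numbers to the opposite lines. A replicate block without the dye term called 4, 7, 0, 7 and 7 of the 7 genes, as the analysis without the block did, and changed no call of theirs. Over all features it called 1087 over time in FI-Delta cells, 2496 in Y577F cells, 52 at 0 h, 1673 at 72 h and 961 in the difference. With 2 cultures a line, p-values measure the spread between these arrays.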
